A study of Homo sapiens with 4 samples.

Results

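The 8 genes described here are ones that ERK signalling is known to induce, and they mostly restrain that signalling or carry it on. They are the Sprouty genes SPRY2 and SPRY4, the dual-specificity phosphatase genes DUSP4, DUSP5 and DUSP6, and the ETS transcription factor genes ETV1, ETV4 and ETV5. They were chosen by symbol, with the differences between the groups already known. All 8 had a named probe set on the array, out of 14884 genes with one. For each gene the probe set of highest mean level was used, and all 8 passed the filter on dim genes that left 11883 genes. The values below are therefore a description of these 8 genes and carry no test.

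Cells of the human neuroblastoma line SH-SY5Y received origamicin, which the submitters give as inhibiting protein disulfide isomerase, at 30 µM for 24 h (2 arrays), or methanol, the solvent, for 24 h (mock, 2 arrays). SH-SY5Y is an established line of sympathetic lineage and is known to carry an activating mutation of the receptor gene ALK. Both groups were grown in the same medium with fetal bovine serum, which itself supplies growth factors. RNA abundance was read on Affymetrix Human Gene 2.0 ST arrays as log2 expression per probe set. The replicates are labelled biological, with no passage or day named, so errors and p-values cover only the spread that these 4 arrays show. Arrays have no counting depth, and their number limits the precision.

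In the ERK pathway, a growth factor binds a receptor tyrosine kinase, adaptors bring an exchange factor to RAS, and RAS starts the kinase relay from RAF to MEK to ERK. Active ERK enters the nucleus and induces transcription factors and its own inhibitors. Sprouty proteins act near the receptor and RAS, and MAP kinase phosphatases of the DUSP family remove the activating phosphates from ERK. ETV1, ETV4 and ETV5 form the PEA3 group of ETS factors, whose transcription follows ERK activity in many cell types. In neuroblastoma the pathway is driven by receptors such as ALK and RET.

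Across all 11883 genes tested, replicate arrays correlated at r = 0.994 (origamicin) and 0.995 (mock), with 0.991 to 0.992 between the groups. The noradrenergic markers of this line were well measured: HAND2 averaged 11.3 and 11.3, GATA3 11.1 and 11.1, and DBH 12.4 and 12.5 in origamicin and mock cells on the log2 scale, although TH, the first enzyme of catecholamine synthesis, averaged 5.66 and 5.67. The dimness filter lay at 3.82. Noradrenergic markers were lower with origamicin in 15 of 17 tested genes and higher in 2. Over all genes tested, 5686 were higher and 6195 lower. The mean of the list was 9.37 and 9.39 on the origamicin arrays, against 9.56 and 9.61 on the mock arrays. Its largest differences were those of CHGA (-0.80), CHGB (-0.76) and DDC (-0.59), larger than those of the 4 markers named above. Mesenchymal neuroblastoma markers were higher in 10 of 12 tested genes, and CD44 and TBX18 were below the filter. The list means were 6.45 and 6.37 on the origamicin arrays, against 6.16 and 6.12 on the mock arrays. The largest differences were those of THBS1 (0.83) and FOSL1 (0.76), and the 2 lower genes were TWIST1 (-0.05) and MEOX2 (-0.14). FOSL1 is also in the lists of immediate early genes and MEK output genes below. Glial and Schwann cell markers were higher in 3 of 6, with list means of 4.66 and 4.76 on the origamicin arrays, against 4.65 and 4.68 on the mock arrays. In RNA from whole cultures, a change in the number of cells of a type and a change in RNA per cell cannot be told apart, and the part of these markers in the results below was not tested.

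Of the 8 genes, RefSeq promoter windows were at hand for 4, SPRY2, SPRY4, DUSP6 and ETV1, a pair that was higher with origamicin and a pair that was lower. The difference of DUSP6 was small, and its confidence interval, given below, includes 0. The 250 bases before the first listed start of each are shown, all on the minus strand of GRCh38.p14, to set the genes of opposite direction side by side. The windows are chr13:80341127-80341376, chr5:142324248-142324497, chr12:89352502-89352751 and chr7:13990703-13990952. Capitals mark the letters CCGGAA on either strand, a longer form of the GGAA core that ETS factors bind.
SPRY2: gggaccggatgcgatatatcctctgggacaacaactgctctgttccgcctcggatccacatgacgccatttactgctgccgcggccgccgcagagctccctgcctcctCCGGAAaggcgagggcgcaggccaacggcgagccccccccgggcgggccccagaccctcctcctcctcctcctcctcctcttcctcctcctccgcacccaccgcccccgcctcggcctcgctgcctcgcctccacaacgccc
SPRY4: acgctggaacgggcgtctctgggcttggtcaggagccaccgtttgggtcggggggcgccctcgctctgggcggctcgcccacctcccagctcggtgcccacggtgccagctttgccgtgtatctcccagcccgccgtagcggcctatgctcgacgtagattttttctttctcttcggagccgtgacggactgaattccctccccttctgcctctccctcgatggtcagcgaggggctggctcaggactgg
DUSP6: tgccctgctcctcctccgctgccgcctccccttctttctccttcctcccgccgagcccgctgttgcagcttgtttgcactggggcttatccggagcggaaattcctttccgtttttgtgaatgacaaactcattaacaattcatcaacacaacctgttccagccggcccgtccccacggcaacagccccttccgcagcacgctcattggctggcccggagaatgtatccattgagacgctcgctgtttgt
ETV1: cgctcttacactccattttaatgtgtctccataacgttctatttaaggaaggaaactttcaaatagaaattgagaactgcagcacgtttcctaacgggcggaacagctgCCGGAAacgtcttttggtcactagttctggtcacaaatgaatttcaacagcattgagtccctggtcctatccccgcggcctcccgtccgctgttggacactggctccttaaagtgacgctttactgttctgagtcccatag

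The ETS letters CCGGAA stood 142 bases before the start of SPRY2 and 141 bases before that of ETV1. They were not in the windows of SPRY4 and DUSP6, although both of these hold the shorter GGAA. Over all 35116 promoter windows of this length, 14.5% hold CCGGAA. SPRY2 has 3 listed starts, of which 1 window held CCGGAA, and ETV1 has 6, of which 3 did, counting a pair of nearly identical windows. No match in the shown windows was found, on either strand, to the AP-1 letters TGAGTCA (4.2% of all windows), the cAMP response element TGACGTCA (1.65%) or the E-box CACGTG (6.34%). None of these motifs contains another. Among the windows not shown, that of listed start 2 of ETV1 held the E-box letters, 153 bases before that start. Of the shown windows, 1 of the pair that was higher and 1 of the pair that was lower held the ETS letters.

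The Sprouty genes were both higher with origamicin. SPRY4, an inhibitor of receptor-driven RAS activation (probe set 17001063), measured 8.04 and 7.92 on the origamicin arrays, against 7.13 and 7.24 on the mock arrays. Both origamicin arrays lay above both mock arrays, with a gap of 0.68 between the groups. The means were 7.98 ± 0.09 with origamicin and 7.19 ± 0.07 in mock (SD, n = 2 each), a log2 difference of 0.79 ± 0.08 (moderated SE), or 1.73-fold. By size of difference this ranked 44 among the 11883 genes, the highest rank of the 8.

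SPRY2, which acts at the same step and binds the ubiquitin ligase CBL (probe set 16780069), measured 8.83 and 8.75 on the origamicin arrays, against 8.46 and 8.32 on the mock arrays. The groups did not overlap, with a gap of 0.29. The means were 8.79 ± 0.06 with origamicin and 8.39 ± 0.10 in mock (SD, n = 2 each), a log2 difference of 0.40 ± 0.08, or 1.32-fold. The difference of SPRY4 was thus larger than that of SPRY2 on these arrays. Of the other Sprouty genes, SPRY1 has no named probe set here and SPRY3 stood at -0.06 ± 0.18, with overlapping groups, and at 0.19 without origamicin replicate 1.

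**Figure D1:**
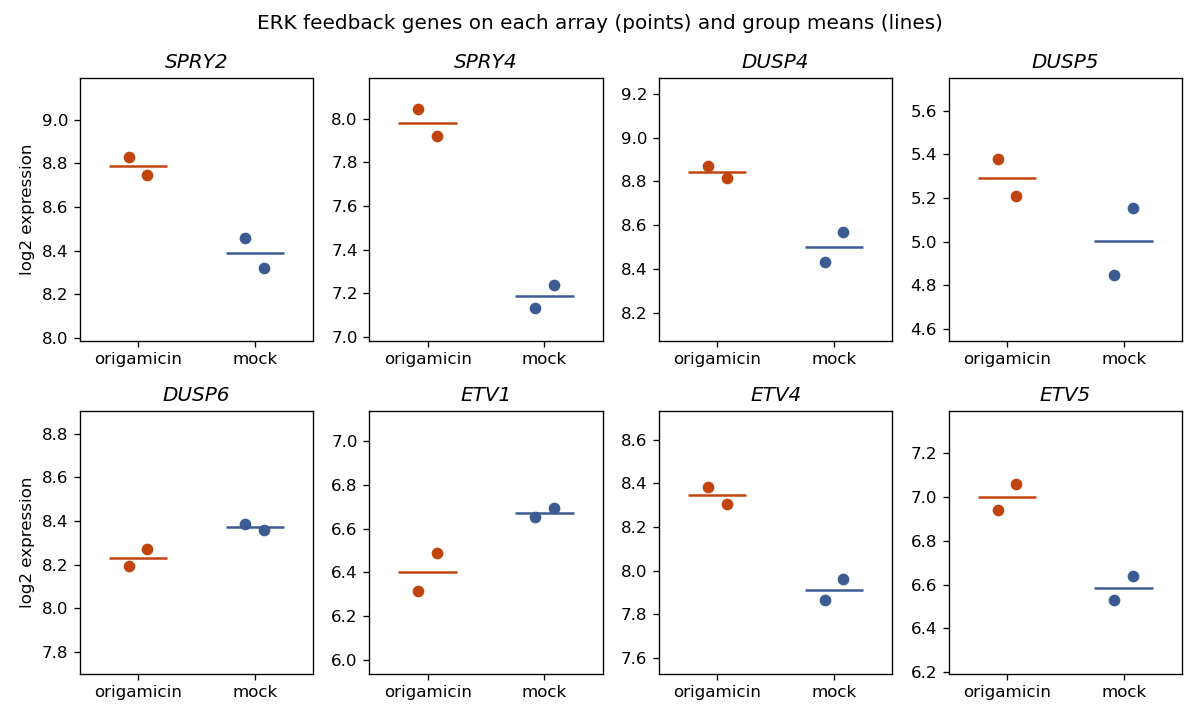
Log2 expression of each ERK feedback gene (y axis, each panel spanning the same range around the gene's own mean) on the 2 origamicin arrays (left) and the 2 mock arrays (right), with a line at each group mean. Origamicin lies above mock for SPRY2, SPRY4, DUSP4, DUSP5, ETV4 and ETV5 and below it for DUSP6 and ETV1.

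The phosphatase genes did not all have the same sign, but for DUSP5 and DUSP6 the confidence interval given below includes 0. DUSP4, a nuclear phosphatase of ERK, JNK and p38 (probe set 17075973), measured 8.87 and 8.82 on the origamicin arrays, against 8.43 and 8.57 on the mock arrays. The origamicin arrays were both higher, and the group means of 8.84 ± 0.04 and 8.50 ± 0.10 (SD, n = 2 each) differed by 0.34 ± 0.08, or 1.27-fold.

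DUSP5, a nuclear phosphatase selective for ERK (probe set 16709128), was more variable between arrays. It measured 5.38 and 5.21 on the origamicin arrays, against 4.85 and 5.16 on the mock arrays. The nearest arrays of the 2 groups were only 0.05 apart, and the means of 5.29 ± 0.12 with origamicin and 5.00 ± 0.22 in mock (SD, n = 2 each) differed by 0.29 ± 0.13, or 1.22-fold. The moderated confidence interval of this difference at the 0.05 level ran from -0.06 to 0.65 and includes 0. The size of the difference rested on the mock arrays: without mock replicate 1 it was 0.14, and without mock replicate 2 it was 0.45. The other named probe set of DUSP5, near the filter, measured 4.05 and 3.84 on the origamicin arrays, against 4.08 and 3.65 on the mock arrays. There the groups overlapped, with a difference of 0.08, and the mean of both probe sets gave 0.19.

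DUSP6, the cytoplasmic phosphatase selective for ERK and a widely used readout of its activity (probe set 16768297), had a difference of opposite sign. It measured 8.19 and 8.27 on the origamicin arrays, against 8.38 and 8.36 on the mock arrays. Both origamicin arrays were lower, by a gap of 0.09. The means of 8.23 ± 0.05 and 8.37 ± 0.02 (SD, n = 2 each) differed by -0.14 ± 0.07, so mock was 1.10-fold higher. This was the smallest difference of the 8 in size, at the 61.3rd percentile of all genes by size. Its moderated confidence interval at the 0.05 level ran from -0.32 to 0.04 and includes 0. RefSeq lists a read-through gene, POC1B-DUSP6, across this locus, and probes in shared exons could read both.

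Of the ETS factors, ETV4 and ETV5 were higher and ETV1 lower. ETV4 (probe set 16845410) measured 8.38 and 8.31 on the origamicin arrays, against 7.87 and 7.96 on the mock arrays. ETV5 (probe set 16962380) measured 6.94 and 7.06 on the origamicin arrays, against 6.53 and 6.64 on the mock arrays. For both genes the groups were apart, by 0.35 and 0.30. The means of ETV4 were 8.34 ± 0.05 with origamicin and 7.91 ± 0.07 in mock, and those of ETV5 7.00 ± 0.08 and 6.58 ± 0.08 (SD, n = 2 each). The log2 differences were close to each other, 0.43 ± 0.07 for ETV4 (1.35-fold) and 0.42 ± 0.08 for ETV5 (1.33-fold).

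ETV1, the third PEA3 factor (probe set 17055354), measured 6.32 and 6.49 on the origamicin arrays, against 6.65 and 6.69 on the mock arrays. Both origamicin arrays were lower. The means of 6.40 ± 0.12 with origamicin and 6.67 ± 0.03 in mock (SD, n = 2 each) differed by -0.27 ± 0.09, so mock was 1.21-fold higher. Within the same group of factors, the differences of ETV1 and of its relatives ETV4 and ETV5 thus had opposite signs. The sign of each of the 8 genes was unchanged under equal array medians, quantile normalization and cyclic loess. Leaving out any 1 array could not turn a sign, because the groups of each gene did not overlap.

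**Figure D2:**
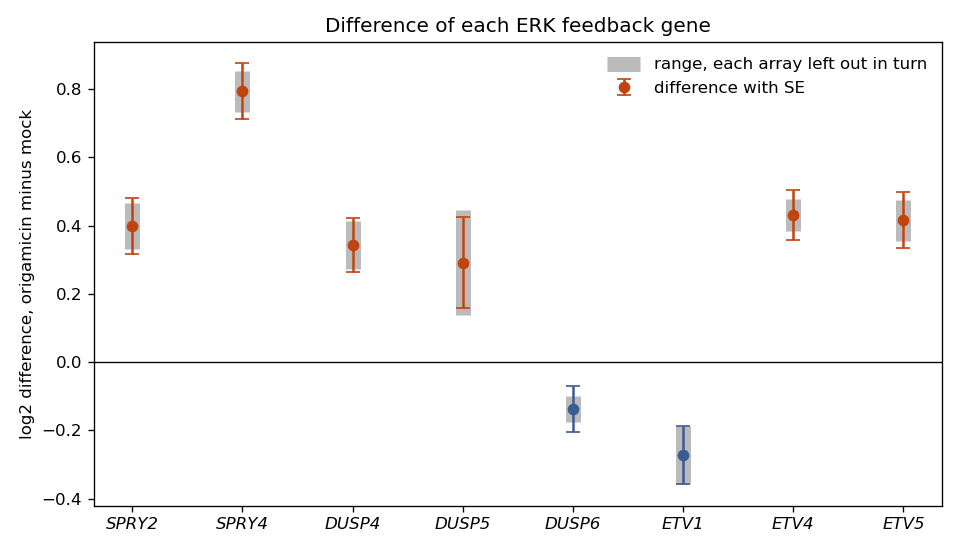
Log2 difference, origamicin minus mock, of each ERK feedback gene (points, with the moderated SE as error bar) and the range of that difference when each array is left out in turn (grey). Only DUSP6 and ETV1 lie below 0, and the grey range is widest for DUSP5, from 0.14 to 0.45.

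Over the 8 genes the median log2 difference was 0.37, beside -0.01 over all 11883 genes. The median size regardless of sign was 0.37 for the 8 and 0.11 for all genes. The groups did not overlap for any of the 8 (6 higher, 2 lower), beside 48.6% of all genes (22.7% higher, 25.8% lower). In the limma fit 0 of 8 passed an adjusted p of 0.05, as did 0% of all genes. At an unadjusted p under 0.05 there were 6 of 8 (5 higher, 1 lower), beside 16.4% of all genes, 7.99% higher and 8.42% lower. In limma with an intensity trend, which lets the expected spread depend on brightness, 5 of 8 had an adjusted p under 0.05, all higher. The share of all genes in that fit was 4.3%, 2.14% higher and 2.16% lower. Since the 8 were picked with this contrast in view, these counts are no test of them and nothing is read from the counts.

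**Figure D3:**
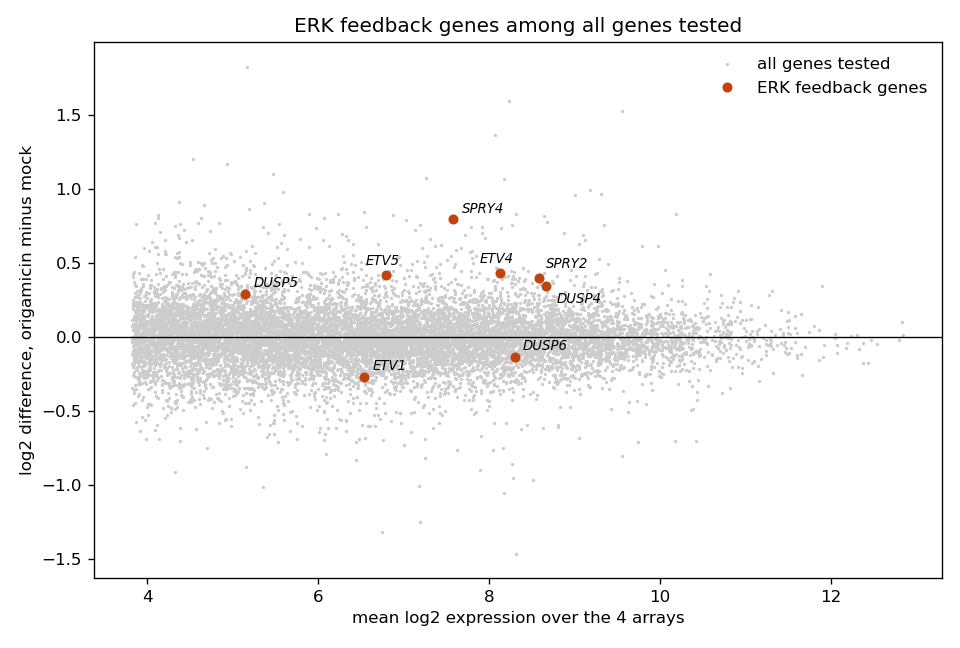
Log2 difference, origamicin minus mock, against mean log2 expression over the 4 arrays for all 11883 genes tested (grey) and the 8 ERK feedback genes (orange). SPRY4 lies highest of the 8 at 0.79, 5 lie between 0.29 and 0.43, and DUSP6 and ETV1 lie at -0.14 and -0.27.

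The other genes of the pathway were read from the same limma fit over all genes, through lists written by role. Of 171 genes listed, 125 had a named probe set and 116 were tested. None of the 116 passed an adjusted p of 0.05 in limma, 32 had an unadjusted p under 0.05 (19 higher, 13 lower), and 17 passed with an intensity trend (8 higher, 9 lower). Over all genes the unadjusted count was 1950, a share of 16.4% (7.99% higher, 8.42% lower). With an intensity trend 254 genes were higher (2.14%) and 257 lower (2.16%), the shares beside which each list count with that trend below stands. The lists were written with earlier results of these data known, so nothing is read from their counts. The median of the 116 was 0.01.

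Among ligands, 17 of 30 listed genes were tested, 10 higher and 7 lower, with a median of 0.07. With an intensity trend 2 were higher and 3 lower at an adjusted p under 0.05, beside 2.14% and 2.16% of all genes. FGF7, a ligand of an FGFR2 isoform, measured 3.86 and 3.87 on the origamicin arrays, against 4.84 and 4.72 on the mock arrays (difference -0.91 ± 0.07). Its level with origamicin lay at the dimness filter, so the size is uncertain, and FGF7 has pseudogene copies with nearly the same sequence. HGF, the ligand of MET, measured 4.68 and 4.75, against 5.65 and 5.54 in mock (-0.88 ± 0.07). Its level with origamicin was low too, little above the array medians of 4.37 to 4.42. KITLG, the ligand of KIT, was higher, at 7.65 and 7.71, against 7.01 and 7.12 in mock (0.61 ± 0.07). The adjusted p of these 3 was 0.095, 0.095 and 0.11 in limma, and 0.023, 0.016 and 0.0097 with an intensity trend. Listed ligands with no named probe set here include GDNF, ALKAL1 and ALKAL2.

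Among receptors, 15 of 22 were tested, 7 higher and 8 lower, with a median of -0.06. With an intensity trend 0 were higher and 3 lower, beside 2.14% and 2.16% of all genes. The 3 were KIT, RET and ALK. KIT measured 5.73 and 5.71 on the origamicin arrays, against 6.43 and 6.40 on the mock arrays (-0.70 ± 0.06, limma adjusted p = 0.095, with trend 0.015). RET, the receptor of GDNF family ligands, measured 7.81 and 7.77, against 8.28 and 8.16 in mock (-0.43 ± 0.07, limma adjusted p = 0.17, with trend 0.018). ALK measured 8.66 and 8.65, against 8.95 and 8.98 in mock (-0.31 ± 0.06, limma adjusted p = 0.18, with trend 0.021). FGFR1 stood at -0.07 ± 0.07, or -0.03 without mock replicate 1, -0.11 without mock replicate 2 and -0.04 without origamicin replicate 2.

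Adaptors, RAS proteins and the kinase cascade differed less in size. Of 35 listed genes 23 were tested, 9 higher and 14 lower, with a median of -0.05, and none passed in limma with or without an intensity trend. At an unadjusted p under 0.05 there were 3 higher and 2 lower, beside 7.99% and 8.42% of all genes. The MEK genes MAP2K1 and MAP2K2 stood at -0.13 ± 0.07 and -0.12 ± 0.08, and MAPK3, which encodes ERK1, at -0.07 ± 0.08. Without mock replicate 1 MAP2K2 was at -0.18 and MAPK3 at -0.0072, and without mock replicate 2 they were at -0.05 and -0.13. Without origamicin replicate 1 MAPK3 was at -0.04. The smallest p belonged to the RAS exchange factor RASGRP1 (-0.28 ± 0.07), the RAS relative MRAS (0.25 ± 0.07) and the adaptor GAB2 (0.23 ± 0.07), with limma adjusted p of 0.19, 0.22 and 0.25. Phosphorylation, through which this cascade signals, was not measured.

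**Figure D4:**
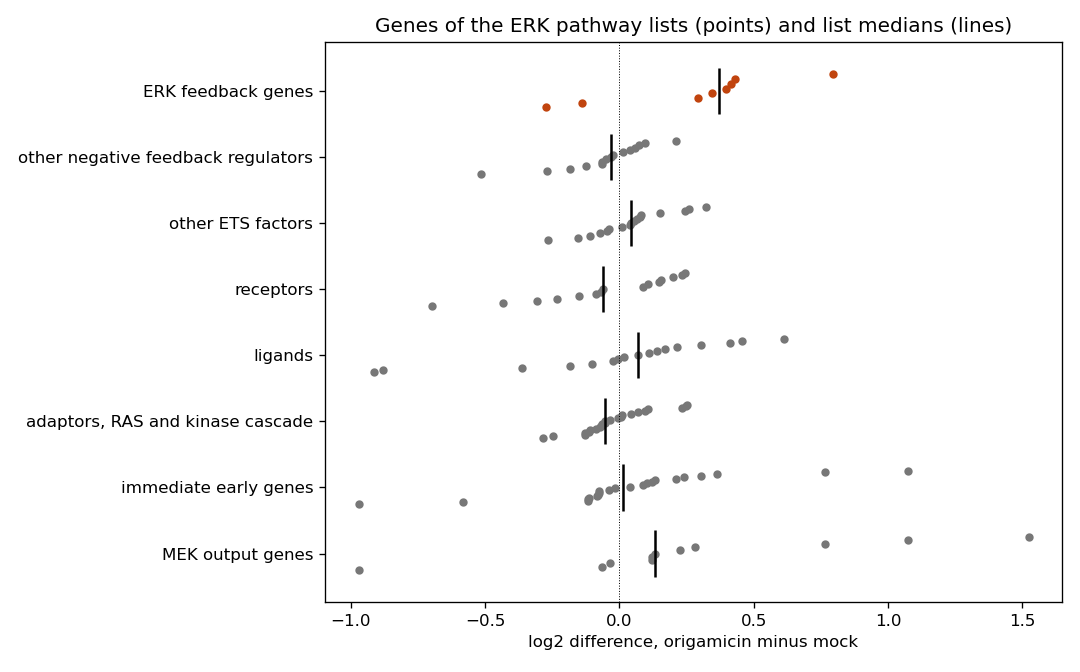
Log2 difference, origamicin minus mock, of every tested gene of each ERK pathway list (points, spread vertically in order of their value) with the list median (line). The ERK feedback genes have a median of 0.37, and the other lists have medians between -0.06 and 0.13.

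Other negative regulators gave no common direction: 15 of 23 were tested, 6 higher and 9 lower, with a median of -0.03, and with an intensity trend 0 were higher and 1 lower. That 1 was DUSP7, a close relative of DUSP6 that also acts on ERK in the cytoplasm. It measured 6.92 and 6.74 on the origamicin arrays, against 7.36 and 7.33 on the mock arrays (-0.52 ± 0.09, limma adjusted p = 0.16, with trend 0.023). DUSP9, the remaining cytoplasmic ERK phosphatase and named here after its values were seen, measured 5.19 and 4.62, against 4.95 and 5.23 in mock. Its groups overlapped, and its difference was -0.18 ± 0.22 (limma adjusted p = 0.74), or 0.10 without origamicin replicate 2.

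DUSP1, a nuclear phosphatase and immediate early gene, stood at -0.13 ± 0.07, and DUSP8, selective for JNK and p38, at -0.27 ± 0.09. DUSP3, a small atypical phosphatase of ERK and JNK, stood at 0.21 ± 0.07. Their limma adjusted p were 0.46, 0.27 and 0.26. DUSP1 was at -0.07 without mock replicate 1, and DUSP8 at -0.17 without origamicin replicate 1. DUSP2, also named after its values were seen, stood at -0.03 ± 0.13, with overlapping groups and a sign that turned without mock replicate 1 (0.07) or origamicin replicate 2 (0.10). SPRED1 and SPRED2 have no named probe set here.

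**Figure D5:**
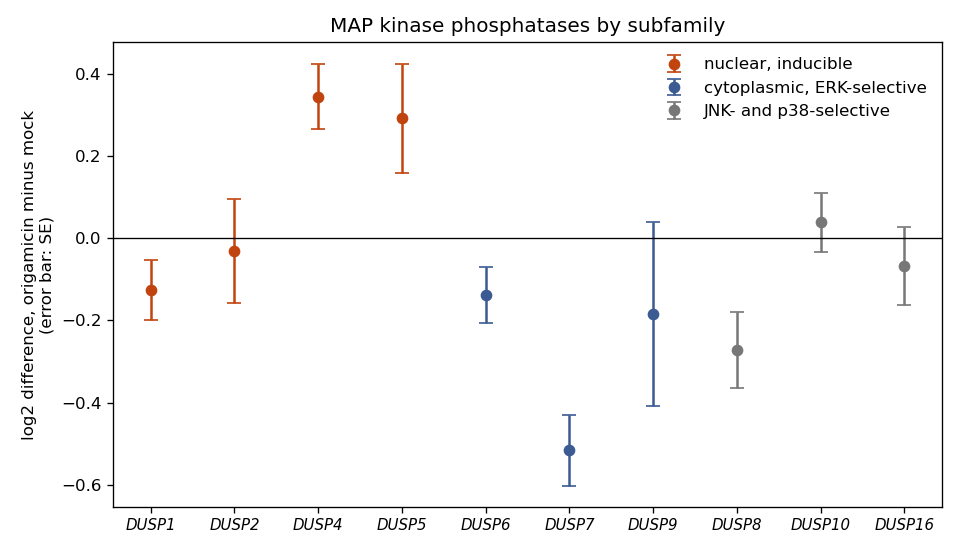
Log2 difference, origamicin minus mock, of MAP kinase phosphatase genes grouped by subfamily (points, error bar the moderated SE). Of the nuclear phosphatases, DUSP4 and DUSP5 lie at 0.34 and 0.29 and DUSP1 and DUSP2 at -0.13 and -0.03. DUSP6, DUSP7 and DUSP9 lie at -0.14, -0.52 and -0.18, and without single arrays the sign of DUSP2 and DUSP9 turns.

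Among other ETS factors 17 of 24 were tested, 11 higher and 6 lower, with a median of 0.04. With an intensity trend 1 was higher and 0 lower. ELF1, the one that passed there, measured 10.2 and 10.3 on the origamicin arrays, against 10.0 and 9.99 on the mock arrays (0.26 ± 0.07, limma adjusted p = 0.22, with trend 0.035). The repressor ETV6 stood at 0.25 ± 0.07, FEV at 0.15 ± 0.06, ETS1 at -0.05 ± 0.08 and ETS2 at -0.11 ± 0.08. Without origamicin replicate 1 ETS1 turned to 0.04 and ETS2 was at -0.03, and without origamicin replicate 2 they were at -0.13 and -0.18. Without mock replicate 1 ETS1 was at -0.03. No other ETS factor tested differed by as much as ETV4 or ETV5 in either direction.

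The immediate early genes, which ERK and other pathways induce, split evenly: 22 of 28 were tested, 11 higher and 11 lower, with a median of 0.01, and with an intensity trend 2 were higher and 2 lower. EGR1 measured 7.71 and 7.88 on the origamicin arrays, against 6.79 and 6.65 on the mock arrays (1.08 ± 0.10). The mean of its named probe sets gave 0.86. MYC measured 7.98 and 8.08, against 8.94 and 9.07 in mock (-0.97 ± 0.08). FOSL1 stood at 0.76 ± 0.07 and FOS at 0.21 ± 0.07, and the mean of the named probe sets of FOS gave 0.05. Both EGR1 and MYC had limma adjusted p = 0.095 and passed with an intensity trend (0.0024 and 0.0019). FOSL1 was the other higher gene that passed there (0.016). The other lower gene was JUN, at -0.58 ± 0.07 (limma adjusted p = 0.11, with trend 0.0097).

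Further genes described as output of MEK and ERK numbered 15, which share EGR1, FOSL1, MYC and IER3 with the immediate early list. Of these, 11 were tested, 8 higher and 3 lower, with a median of 0.13. With an intensity trend 5 were higher and 1 lower, beside 2.14% and 2.16% of all genes. This list too was written with earlier results known, so nothing is read from its count. CCND1, the cyclin of early G1, measured 10.6 and 10.6 on the origamicin arrays, against 10.4 and 10.4 on the mock arrays (0.23 ± 0.06, limma adjusted p = 0.22, with trend 0.029). TFPI2, a secreted protease inhibitor, stood at 1.52 ± 0.09 (limma adjusted p = 0.095, with trend 0.00064). PHLDA1 has no named probe set here. The 1 lower gene that passed there was MYC.

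Likeness was measured as the Euclidean distance between the log2 values of 2 genes over the 4 arrays, each gene centred on its own mean. The genes nearest to SPRY4 were LAYN, a hyaluronan-binding membrane protein (distance 0.038), and the complement component C7 (0.059). LAYN measured 6.71 and 6.58 on the origamicin arrays, against 5.75 and 5.88 on the mock arrays. Only 7 of the other genes lay within 0.1 of SPRY4, against 1096 for DUSP6, whose small difference is common.

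The genes nearest to ETV4 were NAB2, which encodes a corepressor of EGR factors (0.024), and the lysosomal trafficking regulator LYST (0.024). NAB2 measured 6.58 and 6.52 on the origamicin arrays, against 6.09 and 6.15 on the mock arrays. SPRY2 was nearest to HSD17B14 (0.021) and ARHGEF6 (0.030), and DUSP4 to HSD17B7P2, a pseudogene (0.024), and HECA (0.029). ETV5 was nearest to RPL26L1-AS1 (0.025) and ASCC3 (0.039), and DUSP5 to the protease gene CTSL (0.040) and IL17RC (0.046).

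ETV1 was nearest to the mitotic kinase gene CDK1 (0.021) and to DUSP8 (0.023), and DUSP6 to SERF1A, which has a nearly identical copy (0.0065), and TRMT61B (0.0085). With 4 arrays in 2 groups, such distances mostly reflect the group difference. The count of genes within 0.1 was 68 for SPRY2, 83 for DUSP4, 34 for DUSP5, 227 for ETV1, 49 for ETV4 and 47 for ETV5. The 8 genes themselves were left out of the search.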

How the data were processed

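Total RNA of 4 SH-SY5Y cultures was read on Affymetrix Human Gene 2.0 ST arrays. The authors deposited log2 expression per probe set; the submitters' processing notes list RMA and limma with no version, and the build is not given in the sources used here. Deposited values ran from 0.574 to 14.5, with array medians of 4.37 to 4.42, and were not normalized again. The platform annotation named 1 gene for 16098 of 53617 probe sets, and RefSeq changed 0 symbols. The probe set with the highest mean was kept per gene, and 3001 genes whose mean fell under the 40th percentile of probe sets (3.82) were left out.

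The comparison, origamicin minus mock, used limma 3.58.1 (R 4.3.3) on all 4 arrays with eBayes, one common prior variance, no covariate and two-sided p-values, and Benjamini-Hochberg values over 11883 genes and a threshold of 0.05. SE are moderated. The fit was also run on simulated data as a check of the code. Its recovery of differences of the size described here is not reported. Members, lists and the rule for named genes were chosen with earlier results of these data known. The rule named the members, the 3 genes of smallest p in each list, 20 fixed genes and the 2 nearest genes per member. Some named genes stand outside this rule, among them DUSP2, DUSP9, SPRY3, JUN and cell type markers such as HAND2, GATA3, DBH and TH. Alternatives were a replicate block, no filter, the 60th percentile, equal medians, quantile normalization, the mean of probe sets, an intensity trend, robust eBayes and leaving out each array; cyclic loess was an alternative chosen after seeing the data. Promoter windows are RefSeq's (GRCh38.p14).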

Additional observations from a re-analysis of the deposited data

How the results depend on the processing

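The count of genes at an adjusted p under 0.05 was 0 in the chosen limma fit, 92 with the 60th percentile filter and 511 with an intensity trend, and the pathway genes among them numbered 0, 8 and 17. Every other alternative left both counts at 0. At an unadjusted p under 0.05 the chosen fit gave 1950 genes, and leaving out 1 array gave 1261 to 1669, with both low counts, 1270 and 1261, from leaving out mock replicate 1 or 2. The median difference of the 8 ERK feedback genes was 0.37, and 0.32 to 0.43 with 1 array left out. The sign of none of the 8 changed in 104 alternative values, but most of these could not have changed it. The filters, the trend, robust eBayes and the replicate block leave each difference as it is. With groups apart for all 8, leaving out 1 array could not turn a sign either. Only the rescalings and, for DUSP5, the mean of probe sets could have turned one. Of 647 alternative values of 50 other named genes, 9 changed sign, those of ETS1, DUSP2, DUSP9, SPRY3, HAND2, GATA3 and TH, none of which passed in any fit, and 27 passed an adjusted p of 0.05. No label states a pairing, so the replicate numbers were not taken as pairs. Same-numbered arrays of the groups did not deviate together (r = -0.02 over 11883 genes). With the replicate number as a block, 1718 genes had an unadjusted p under 0.05, 0 passed the adjusted threshold, and the median of the 8 was 0.37. The cause of the gain in calls with the filter and the trend was not tested. The level of FGF7 with origamicin, 3.86, lies at the filter of 3.82, so signal over background limits what its difference can show.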
